A study of Mus musculus with 16 samples.

Results

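The 7 mouse lung tumors that carry wild-type Max were divided by their level of Mycl1, the gene for the transcription factor L-MYC (current mouse symbol Mycl). A tumor was called Mycl-high where Mycl1 made up 400 or more counts per M reads in genes (CPM) and Mycl-low below that, which gave 4 Mycl-high tumors and 3 Mycl-low tumors among the 16 tumors of the study. Both sets carry the labelled genotype RPMaxWT and a mixed 129/SvJ and C57BL/6 background. The other 9 tumors are labelled Max -/- and were used only where the text says so. Alleles were deleted by Cre recombinase from the CMV promoter, delivered into the trachea with an adenovirus (Ad.CMV.Cre), so no cell type was chosen by the promoter. RP commonly stands for conditional Rb1 and Trp53 alleles, a mouse model of small cell lung cancer, but the labels do not spell it out, nor do they give the age, the sex or the mouse of each tumor. The p-values below therefore measure the spread between these 7 samples, and the tumors may not all be independent mice.

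L-MYC, c-MYC and N-MYC bind DNA as dimers with MAX, chiefly at the E-box sequence CACGTG, while MXD and MNT proteins compete for MAX. MYC family dimers are best known for raising the output of ribosome, nucleotide and other growth genes. In human small cell lung cancer the genes MYCL, MYC and MYCN are amplified in a fraction of tumors, mostly in different tumors, and MYCL can be fused to its chromosomal neighbour RLF. Loss of Rb1 and Trp53 in mouse lung gives neuroendocrine tumors, many of which gain Mycl or the lineage factor Nfib.

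Mycl1 stood at 2797, 538, 496 and 746 CPM in Mycl-high tumors 1, 4, 6 and 7, and at 17.5, 149 and 240 CPM in Mycl-low tumors 2, 3 and 5. Tumor 1 was far above the other Mycl-high tumors and tumor 2 far below every other tumor, so the highest and the lowest level were 160-fold apart. The member nearest the boundary on the inside had 496 CPM and the nearest one outside had 240 CPM. These values made the sets and are given as a description, without a test. In the Max null tumors Mycl1 ran from 25.01 to 215 CPM, so all 9 were below the 400 CPM that defines the Mycl-high set.

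**Figure D1:**
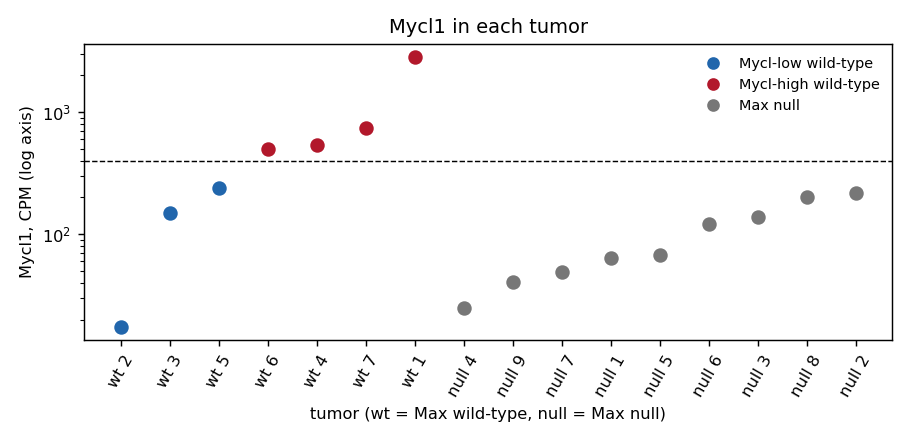
Mycl1 in plain CPM (log axis) in each of the 16 tumors, 1 point per tumor; the dashed line is the 400 CPM that separates the sets. The 4 Mycl-high tumors lie between 496 and 2797 CPM, the 3 Mycl-low tumors between 17.5 and 240 CPM and the 9 Max null tumors between 25.01 and 215 CPM.

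The neuroendocrine markers of the labelled tumor type were present in both sets. Chga, the granule protein chromogranin A, had 245 to 615 CPM in Mycl-high and 502 to 790 CPM in Mycl-low tumors, and Insm1, a neuroendocrine zinc finger factor, had 114 to 666 and 212 to 325 CPM. Markers of other cells were also counted: Sftpc of alveolar type 2 cells ran from 25.7 CPM in tumor 1 to 1193 CPM in tumor 4, and Scgb1a1 of club cells from 92.3 to 3263 CPM in the same tumors. Mycl-low tumors lay inside these ranges, with 81.9 to 758 CPM of Sftpc. Reads from the Y chromosome genes Ddx3y, Eif2s3y, Kdm5d and Uty were at 12.5 to 151 CPM in Mycl-low tumor 2 and at 1.45 CPM or less in the other 6. In bulk tumors, fewer cells of a type and less RNA per cell cannot be told apart.

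The 7 libraries held 9.15 to 13.2 M reads in genes each. In 7 properties of the libraries the two-sided exact permutation test over the 35 splits of 4 and 3 gave unadjusted p from 0.286 to 0.857, and adjusted over the 7 properties a single one cannot go below 0.2, so it could pass only if several did and does not show that the libraries are alike. Multiply aligned reads took 13.4%, 20.8%, 14.6% and 22.2% of reads in Mycl-high tumors 1, 4, 6 and 7 and 12.3% to 16.01% in the Mycl-low tumors (17.7% ± 4.38 against 13.7% ± 2.02, SD, n = 4 and 3; exact p = 0.286). Tumors 4 and 7 therefore stand apart in this measure. Across 14570 genes, the correlation of a gene's log2 level (minus its mean over the 7 tumors) with log2 transcript length was -0.48 in tumor 7 and -0.26 in tumor 4, against -0.04 to 0.31 in the other 5, so these 2 libraries also stand apart in length. In addition, the first principal component of expression, with 30.9% of the variance, placed tumor 1 at the other end from tumors 3 and 7. No pair of the 7 libraries agreed within sampling noise (highest correlation of log2 CPM 0.930, smallest chi-square 44.3 per degree of freedom).

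Across the other genes, the edgeR quasi-likelihood test called 0 of 14967 genes (0%) at a Benjamini-Hochberg adjusted p of 0.05, and the smallest adjusted p was 0.557. At an unadjusted p under 0.05 there were 939 genes, 542 higher in Mycl-high tumors (3.62%) and 397 lower (2.65%). In 527 genes (3.52%) every Mycl-high tumor was above every Mycl-low tumor, and in 507 genes (3.39%) every one was below. The median log2 difference (Mycl-high minus Mycl-low) was 0.03 over all tested genes. limma-voom with sample weights also called 0 genes. DESeq2 called 107 genes, 88 higher (0.592%) and 19 lower (0.128%), of 14876 with an adjusted p. The edgeR common coefficient of variation between tumors of 1 set was 0.508. Gene levels below are thus described with their values, and none is a call of the main test.

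The genes closest to Mycl1 on the chromosome leaned to the higher side. Of the 5 annotated genes on each side of Mycl1 on mouse chromosome 4, 7 were tested, and all 7 were higher on average in Mycl-high tumors, with a median log2 difference of 2.65. Unadjusted p was under 0.05 for 5 of them, against the 3.62% of all genes given above. With 10 genes on each side, 10 of 11 tested genes were above 0 and the median was 1.62. The 25 genes on each side gave 27 of 33 above 0 and a median of 0.76. Position on the chromosome was not used to form the sets.

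Trit1, which encodes a tRNA-modifying enzyme and is the next gene to Mycl1, had 249, 49.2, 162 and 238 CPM in Mycl-high tumors 1, 4, 6 and 7. It had 14.0, 31.1 and 47.6 CPM in Mycl-low tumors 2, 3 and 5, and 12.4 to 29.7 CPM in the Max null tumors (log2 difference 2.65 ± 0.62 SE; edgeR adjusted p = 0.680). The sets do not overlap, but tumor 4 lies just above Mycl-low tumor 5 while tumors 1, 6 and 7 lie far above. Mfsd2a, a lysophospholipid transporter gene on the other side, had 48.3, 7.88, 13.8 and 8.56 CPM against 0.546, 2.21 and 2.81 CPM (log2 difference 3.48 ± 0.85 SE; edgeR adjusted p = 0.680). It too does not overlap between the sets, with tumor 1 highest. The Max null tumors had 0.240 to 7.59 CPM of Mfsd2a, which reaches to just below tumor 4.

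Farther out, the tumors differed in how many neighbours were high. Ppie, a spliceosomal prolyl isomerase gene, had 302 CPM in tumor 1 and 682 CPM in tumor 7, against 70.3 and 90.7 CPM in tumors 4 and 6 and 38.7 to 60.8 CPM in Mycl-low tumors. Cap1, an actin regulator, had 723 and 1424 CPM in tumors 1 and 7, and 208 and 285 CPM in tumors 4 and 6. Its Mycl-low values of 138, 255 and 358 CPM overlap with the latter pair. Pabpc4, a poly(A)-binding protein gene, had 147, 40.6, 80.1 and 229 CPM in tumors 1, 4, 6 and 7, against 23.6 to 43.5 CPM in Mycl-low tumors. Its Max null values of 50.1 to 72.9 CPM lie above all Mycl-low tumors and above tumor 4.

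Of the genes still farther out, some were high chiefly in tumor 7 and others in both tumors 1 and 7. Mycbp, named for its product's binding to c-MYC, had 124 CPM in tumor 7 and 21.9 to 45.9 CPM in the other 6 tumors. Rragc, a GTPase of the amino acid sensing pathway, had 325 CPM in tumor 7, 192 CPM in tumor 1 and 117 to 136 CPM elsewhere. Sf3a3, beyond both of these genes, had 239 CPM in tumor 1 and 310 CPM in tumor 7, against 81.0 to 142 CPM elsewhere. In tumor 1, Bmp8b, a bone morphogenetic protein gene, had 156 CPM and the cytoskeletal linker Macf1 818 CPM, against 31.4 and 411 CPM in tumor 7. Rlf, the neighbour known as a fusion partner in human tumors, had 127, 52.4, 106 and 125 CPM in Mycl-high tumors 1, 4, 6 and 7 and 57.9 to 88.9 CPM in Mycl-low tumors, and the sets overlap.

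Over the 7 tested genes within 5 of Mycl1, the median log2 level relative to the median of the Max null tumors was 3.01 in tumor 1, 3.79 in tumor 7, 1.15 in tumor 6 and 0.63 in tumor 4. In the Mycl-low tumors it was -0.34, 0.38 and 0.88 in tumors 2, 3 and 5. Tumor 4, with Mycl1 at 538 CPM, was thus below Mycl-low tumor 5 in this measure. The median difference over the 11 tested genes within 10 of Mycl1 was 0.84 without tumor 7 and 0.49 without tumors 1 and 7 together, and Trit1 and Mfsd2a still differed by 1.72 and 2.50 in log2 without both. DNA copy number was not measured in these libraries, and its part in these levels was not tested.

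**Figure D2:**
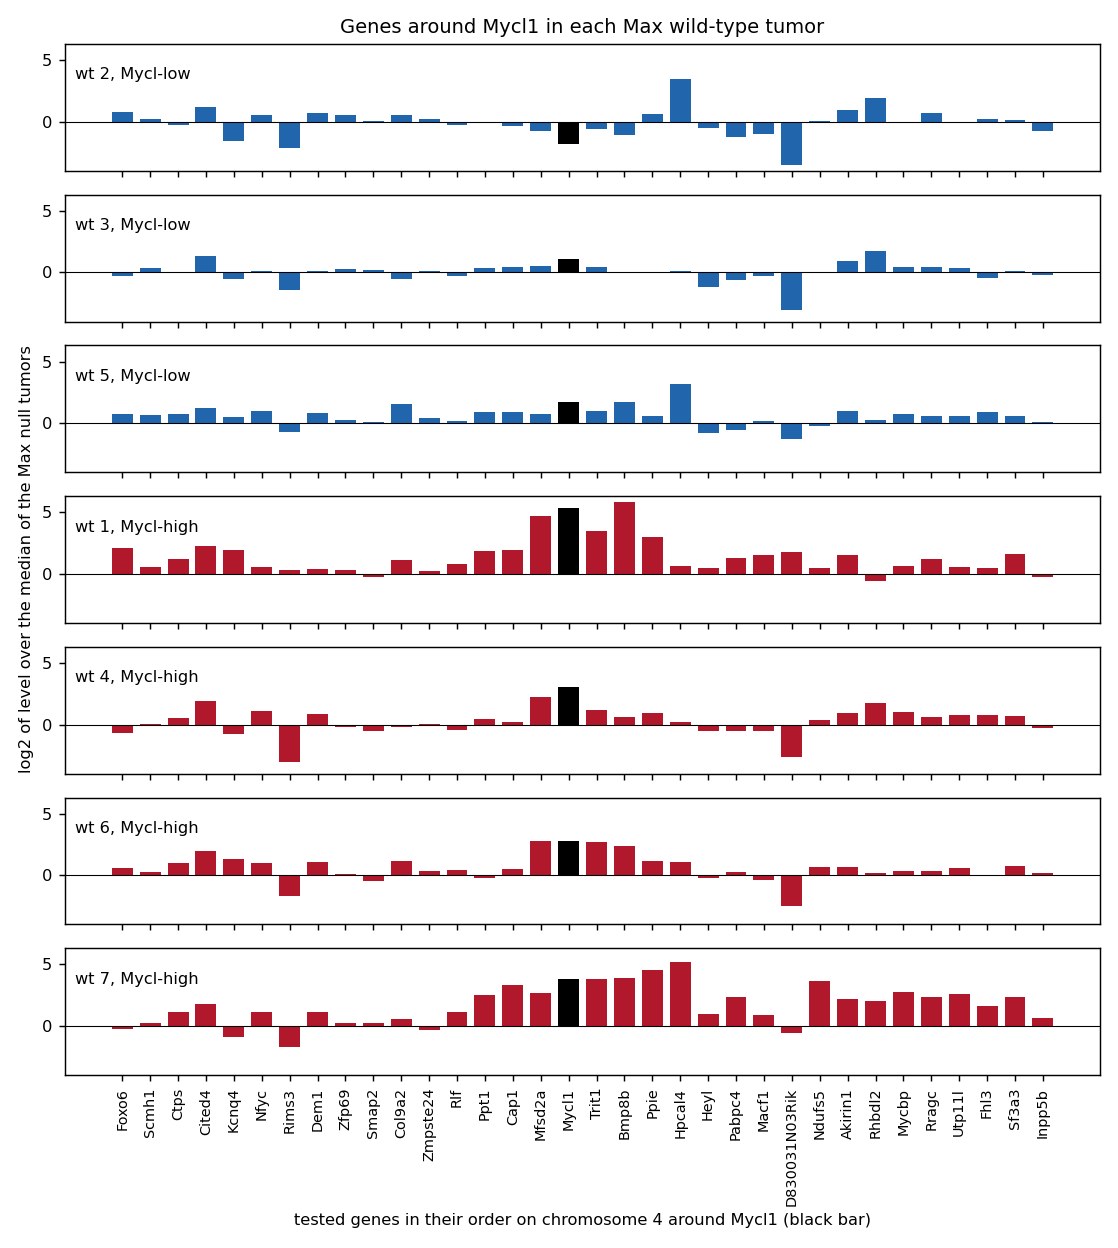
Tested genes within 25 genes of Mycl1 in chromosome order (x axis) and their log2 level over the median of the Max null tumors (y axis), 1 panel per wild-type tumor; the black bar is Mycl1, red bars are Mycl-high and blue bars Mycl-low tumors. Tumors 1 and 7 show a run of high bars around Mycl1 (medians of 3.01 and 3.79 over the 5 nearest genes on each side). In tumor 4 the highest bars are Mycl1 (3.02) and Mfsd2a (2.21), followed by Cited4 (1.91) and Rhbdl2 (1.74).

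Chromosome 4 as a whole had a median log2 difference of 0.21, with 63.7% of its 939 tested genes above 0, against 0.03 and 52.1% over all genes placed on chromosomes. Chromosome 14 had a median of 0.19 with 64.3% of its 499 genes above 0, and its share of genes higher without overlap, 5.81%, was above the 4.69% of chromosome 4. Relative to the Max null tumors the median of chromosome 14 was -0.48 in Mycl-low tumor 3 and -0.02 to 0.14 in the other 6. That of chromosome 4 was 0.39 in tumor 7, 0.29 in tumor 4, 0.26 in tumor 6 and 0.07 in tumor 1, and 0.07, 0.03 and 0.32 in Mycl-low tumors 2, 3 and 5. Tumor 5 was in the range of the Mycl-high tumors. Nfib, a chromatin-opening lineage factor on the same chromosome, had 3109, 1897, 1229 and 568 CPM in Mycl-high tumors 1, 4, 6 and 7, and 606, 346 and 810 CPM in Mycl-low tumors (log2 difference 1.59 ± 0.57 SE; edgeR adjusted p = 0.792). Tumors 1, 4 and 6 were above all Mycl-low tumors and above the Max null range of 188 to 940 CPM, while tumor 7 lay inside both. Tumor 1 was again the highest, and the 8 tested genes within 5 of Nfib had a median of 1.35 over the Max null tumors in it and of -0.34 to 0.47 in the other 6.

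The members of the MYC network itself overlapped between the sets, with the exception of Mxd1. Of the 12 tested genes 5 were above 0 and 7 below, with a median of -0.04 and 0 called. At an unadjusted p under 0.05 there were 0 (background 3.62% higher and 2.65% lower). Myc had 4.86, 12.9, 8.65 and 9.98 CPM in Mycl-high tumors 1, 4, 6 and 7 and 2.70, 11.8 and 6.69 CPM in Mycl-low tumors 2, 3 and 5. Mycn had 15.3, 5.51, 5.74 and 1.23 CPM against 3.37, 5.11 and 5.48 CPM. In tumor 2, the tumor with the least Mycl1, both other MYC genes were therefore below the median of the Mycl-high tumors. Max, the common partner, had 51.9 to 72.7 CPM in Mycl-high and 56.1 to 70.0 CPM in Mycl-low tumors (log2 difference -0.01 ± 0.27 SE).

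Among the proteins that compete with MYC or work beside it, Mxd1 alone did not overlap between the sets. It had 39.8, 39.8, 39.9 and 25.9 CPM in Mycl-high tumors 1, 4, 6 and 7 against 55.9, 49.6 and 41.4 CPM (log2 difference -0.43 ± 0.30 SE; edgeR adjusted p = 0.873), a gap smaller than the spread within either set. Mxi1 differed by 0.75 ± 0.40 SE, Mxd3 by 0.31 ± 0.43, Mxd4 by -0.12 ± 0.34, Mnt by 0.18 ± 0.46 and Mga by -0.18 ± 0.37 in log2. The glucose-sensing branch gave -0.07 ± 0.38 for Mlx, -0.11 ± 0.28 for Mlxip and -0.11 ± 0.49 for Mlxipl.

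Away from the locus, the 2 genes with the smallest p among those higher in Mycl-high tumors, Bex4 and Rps6ka6, both lie on the X chromosome. Of the 478 tested genes of that chromosome, 3.97% were higher without overlap, against 3.54% over all genes placed on chromosomes. Bex4, of the brain-expressed X-linked family of small intracellular proteins, had 51.3, 64.5, 84.8 and 30.2 CPM in Mycl-high tumors 1, 4, 6 and 7, and 0.546, 0.277 and 3.87 CPM in Mycl-low tumors 2, 3 and 5. The sets are far apart, with a log2 difference of 5.26 ± 0.83 SE (edgeR adjusted p = 0.557, and 2.62e-10 to 0.987 over the alternatives, which all had the same sign). Bex4 passed the threshold when Mycl-low tumor 5 was left out and when all 16 tumors shared 1 estimate of the spread. Rps6ka6, an RSK family kinase gene, had 75.4, 34.2, 37.7 and 14.4 CPM against 0.675, 0.617 and 2.82 CPM after TMM scaling, the scale used from here on where Max null tumors are not set beside (log2 difference 4.85 ± 0.79 SE; edgeR adjusted p = 0.557).

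Bex1 and Tceal8, the latter of the related TCEAL family beside Bex4 on the X chromosome, were also among the 12 smallest p. Bex1 had 79.0, 118, 113 and 86.5 CPM in Mycl-high tumors 1, 4, 6 and 7 and 1.53, 13.9 and 21.9 CPM in Mycl-low tumors. Tceal8 had 46.1, 85.0, 60.4 and 17.0 CPM against 6.12, 4.70 and 10.9 CPM. This led, after the values were seen, to the rest of the 2 families and their neighbours. Bex2, Ngfrap1 (also named Bex3), Tceal1 and Tceal3 did not overlap either, with log2 differences of 0.99, 0.81, 1.05 and 4.70. Tceal3 had 120 reads over the Mycl-high and 3 over the Mycl-low tumors, a ratio of 28.4 (95% exact interval 9.48 to 139, counting error only). Wbp5 (also named Tceal9) did overlap, with 396 to 741 CPM in Mycl-high and 355 to 471 CPM in Mycl-low tumors. Bex6, Tceal5, Tceal6 and Tceal7 were left out by the filter on low counts. The 6 Armcx genes, Gprasp1 and Gprasp2 of the same region overlapped between the sets. The Max null tumors, with low Mycl1, held Bex4 at 30.0 to 77.4 CPM and Bex1 at 50.7 to 132 CPM, which are the levels of the Mycl-high and not of the Mycl-low tumors.

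The slope of log2 level on log2 Mycl1 was fitted in the 7 wild-type and the 9 Max null tumors. It was 0.999 in wild-type and -0.21 in null tumors for Bex1, and 1.22 and -0.18 for Bex4. The wild-type slopes rest on the same Mycl1 values that formed the sets, and both genes were chosen for separating those sets, so their slopes are a description and no independent support. The difference of slopes passed the threshold for 0 of 14824 genes (0%) by edgeR, with 1325 at an unadjusted p under 0.05 and a smallest adjusted p of 0.136. Within the null tumors 1 gene followed Mycl1 past the threshold (0.00675%): Baiap2l2, a membrane-shaping BAR domain protein gene, with a slope of 2.29 in null and 0.21 in wild-type tumors, named here after its values were seen.

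The other genes with the smallest p on the higher side serve varied roles. Igfbp2, a binder of insulin-like growth factors, had 314, 325, 136 and 162 CPM in Mycl-high tumors 1, 4, 6 and 7 and 2.475, 6.61 and 32.3 CPM in Mycl-low tumors 2, 3 and 5 (log2 difference 4.08 ± 0.83 SE; edgeR adjusted p = 0.680). The sets are far apart. The slope of Igfbp2 on Mycl1 was 1.16 in wild-type and 1.51 in null tumors, the latter with an edgeR adjusted p of 0.328. Its level in null tumors was uneven, from 2.89 to 228 CPM (mean 35.4 ± 72.7 SD). Fabp5, a fatty acid carrier, had 228, 315, 196 and 329 CPM against 101, 79.7 and 102 CPM (1.51 ± 0.31 SE; edgeR adjusted p = 0.680). The 3 Mycl-low values of Fabp5 lie close together, and its slope was 0.26 in wild-type and -0.58 in null tumors.

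Epb4.1l3, a membrane-cytoskeleton linker, had 88.4, 88.4, 59.6 and 22.7 CPM against 2.25, 0.440 and 8.63 CPM. The rest were low in level. Pkp1, a desmosome protein gene, had 1.97 to 9.51 CPM against 0.440 to 0.564 CPM. Stxbp6, which binds SNARE proteins, had 4.26 to 12.1 CPM against 0.881 to 1.37 CPM. Thpo, the gene for thrombopoietin, had 1.85 to 9.03 CPM against 0.225 to 0.484 CPM, and the zinc finger gene Zfp783 had 2.58 to 8.33 CPM against 0.0806 to 0.352 CPM. All 12 genes chosen by p on this side had sets that did not overlap.

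The largest differences came from genes with hardly a read in the Mycl-low tumors. Duoxa1, which matures dual oxidases, had 67, 21, 14 and 1 reads in Mycl-high tumors 1, 4, 6 and 7 and 0 reads in all Mycl-low tumors, a level at least 24.3-fold higher against a floor of 3 reads over the Mycl-low set. Htr1d, a serotonin receptor gene, had 174 reads against 1, a ratio of 123 (95% exact interval 21.9 to 4901, counting error only). Slc44a5, a choline transporter-like gene, had 211 reads against 1, a ratio of 150 (26.6 to 5937), but 177 of the 211 were in tumor 1. Epha5, an ephrin receptor gene, had 81.4, 1.77, 13.8 and 3.70 CPM, again highest in tumor 1, and Krt17, a basal keratin gene, had 8.35, 95.3, 0.865 and 13.2 CPM, highest in tumor 4. Most of the weight of these 5 genes thus sits in 1 tumor.

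**Figure D3:**
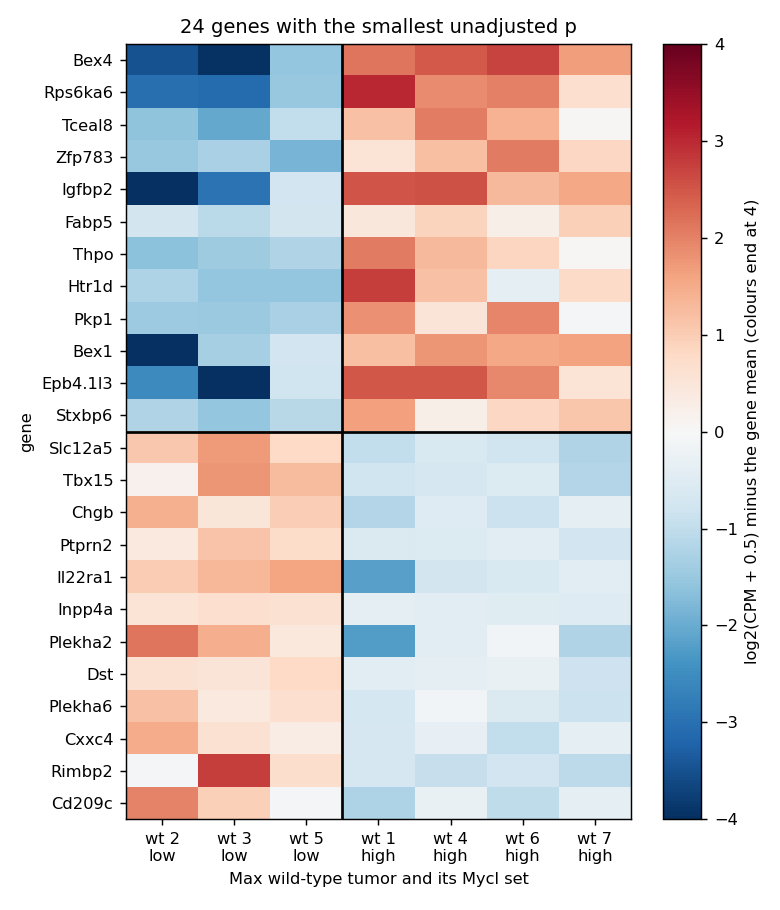
The 12 genes with the smallest unadjusted p in each direction (rows) in the 7 wild-type tumors (columns, Mycl-low left of the black line), as log2(CPM + 0.5) minus the gene's mean over the 7 tumors. All 24 genes separate the sets without overlap, which their choice by p makes likely, and none had an adjusted p under 0.05 in edgeR, while DESeq2 called 23 of them.

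On the lower side the smallest p belonged to Slc12a5, the chloride-extruding cotransporter of neurons. It had 14.5, 18.9, 16.4 and 12.3 CPM in Mycl-high tumors 1, 4, 6 and 7 and 61.1, 95.7 and 49.996 CPM in Mycl-low tumors 2, 3 and 5 (log2 difference -2.15 ± 0.34 SE; edgeR adjusted p = 0.557). DESeq2 called all 12 genes of smallest p on the higher side and 11 of 12 on the lower side, Cxxc4 being the exception, with adjusted p from 2.62e-10 to 0.0419. The Mycl-high values of Slc12a5 are close together and all are far below the Mycl-low ones. Chgb, the granule protein chromogranin B, had 89.4, 143, 112 and 160 CPM against 542, 287 and 400 CPM (-1.70 ± 0.33 SE; edgeR adjusted p = 0.680). Ptprn2, another secretory granule protein gene, had 85.2, 87.3, 96.0 and 74.4 CPM against 168, 284 and 215 CPM (-1.37 ± 0.28 SE; edgeR adjusted p = 0.680). Both granule genes were lower in every Mycl-high tumor than in any Mycl-low one.

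Tbx15, a T-box transcription factor gene, had 19.2 to 30.0 CPM in Mycl-high and 49.7 to 150 CPM in Mycl-low tumors. Il22ra1, a subunit of the interleukin-22 receptor, had 2.88 to 10.96 CPM against 30.3 to 45.2 CPM, and Inpp4a, a phosphoinositide phosphatase gene, had 33.7 to 36.6 CPM against 71.4 to 76.5 CPM. The Inpp4a values lie close together within each set. The cytoskeletal linker Dst had 118 to 167 CPM against 297 to 363 CPM, and the Wnt inhibitor Cxxc4 had 24.3 to 39.1 CPM against 59.6 to 137 CPM. Plekha2, Plekha6, Rimbp2 of presynaptic active zones and the lectin gene Cd209c differed by -2.32, -1.32, -2.56 and -1.87 in log2.

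The 5 largest differences on the lower side each came from 1 Mycl-low tumor. Ddx3y (113 CPM), Lcn13 (334 CPM), Smyd1 (46.9 CPM) and Barx2 (38.6 CPM) were high in tumor 2, and Slco1a6 (29.9 CPM) in tumor 3. The other 2 Mycl-low tumors had 0 to 2.11 CPM of those genes, so the sets overlap in all 5. Ddx3y lies on the Y chromosome and follows the Y reads of tumor 2. Without tumor 2, Lcn13, Barx2 and Ddx3y changed sign (2.32, 0.51 and 0.41).

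The CACGTG letters were looked for in the 250 bases before each RefSeq gene start (GRCm38.p6), on both strands since the word is its own reverse complement. They were present in 6.02% of 32851 promoters, and 6.86% of 27025 genes had at least 1 promoter with them. Among expressed genes the share was 10.2% of 410 non-overlapping genes higher in Mycl-high tumors, 9% of 400 lower and 9.54% of 10765 overlapping ones. Of the genes with the smallest p, 10 of 12 on each side matched a promoter, and 2 held the letters on the higher side (Bex4, Igfbp2) and 1 on the lower side (Slc12a5). These 3 are shown with CACGTG in capitals, and Mycl itself for comparison, which lacks the word in this window; a match is a description only. The windows are, in order, chr4:122995681-122995930, chrX:136138746-136138995, chr1:72824230-72824479 and chr2:164967738-164967987, all on the plus strand, and for Igfbp2 and Slc12a5 the one of 2 promoters with the match.
Mycl: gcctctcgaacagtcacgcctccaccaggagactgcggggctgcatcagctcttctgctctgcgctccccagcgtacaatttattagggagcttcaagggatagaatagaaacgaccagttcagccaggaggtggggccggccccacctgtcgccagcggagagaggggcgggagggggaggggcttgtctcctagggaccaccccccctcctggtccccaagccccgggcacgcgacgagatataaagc
Bex4: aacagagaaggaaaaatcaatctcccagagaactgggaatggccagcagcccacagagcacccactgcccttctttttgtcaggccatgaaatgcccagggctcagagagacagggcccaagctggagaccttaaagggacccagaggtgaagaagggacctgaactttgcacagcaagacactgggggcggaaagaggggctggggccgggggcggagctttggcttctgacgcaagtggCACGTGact
Igfbp2: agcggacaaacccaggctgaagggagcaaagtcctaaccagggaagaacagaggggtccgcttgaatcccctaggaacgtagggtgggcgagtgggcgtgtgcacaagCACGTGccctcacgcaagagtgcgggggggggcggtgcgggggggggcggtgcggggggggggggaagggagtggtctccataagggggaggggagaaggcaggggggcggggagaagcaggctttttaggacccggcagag
Slc12a5: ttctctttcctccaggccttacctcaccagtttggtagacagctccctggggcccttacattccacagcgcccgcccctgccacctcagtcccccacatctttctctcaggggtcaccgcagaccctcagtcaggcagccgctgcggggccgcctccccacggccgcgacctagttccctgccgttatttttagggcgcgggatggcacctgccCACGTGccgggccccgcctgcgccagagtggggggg
In Bex4 the word starts 9 bases before the gene start, in Slc12a5 36 and in Igfbp2 142 bases before it.

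The genes whose level followed Mycl1 most closely were ranked by the correlation of log2 CPM over the 7 tumors, a description in which tumors 1 and 2 set the range. The highest was 0.977 for Acads, a mitochondrial fatty acid dehydrogenase gene, which had 31.0, 20.2, 22.2 and 20.9 CPM in Mycl-high tumors 1, 4, 6 and 7 and 10.7, 17.1 and 18.2 CPM in Mycl-low tumors 2, 3 and 5. Suclg2, Aard, Ldoc1l, Ppat, Tm4sf1, Marcksl1, Msto1, Rcn1 and Mfsd2a followed, with 0.973 down to 0.964. Of the 10, Marcksl1 and Mfsd2a lie on chromosome 4. Ppat encodes the first enzyme of purine synthesis and had 67.6 to 89.3 CPM against 34.3 to 66.0 CPM. Marcksl1, an actin regulator, had 361 to 600.5 CPM against 33.3 to 210 CPM. In the 9 null tumors the same correlations ran from -0.62 for Ppat to 0.66 for Tm4sf1.

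Growth genes, the classical output of MYC factors, leaned to the higher side. Of 68 ribosome biogenesis factors, 56 were above 0, with a median of 0.41 against 0.03 over all genes, and 16 were higher without overlap (background 3.52%) against 0 lower (3.39%). At an unadjusted p under 0.05 there were 4 higher (background 3.62%) and 1 lower (background 2.65%), and 0 were called. Of the 2 members with the most reads, Npm1, nucleophosmin, had 616 to 903 CPM in Mycl-high and 443 to 537 CPM in Mycl-low tumors, and Ncl, nucleolin, had 410 to 796 and 520 to 831 CPM. Nhp2, a box H/ACA snoRNP protein gene, had 98.4, 105, 64.7 and 217 CPM in Mycl-high tumors 1, 4, 6 and 7 and 41.1, 37.8 and 31.7 CPM in Mycl-low tumors (log2 difference 1.72 ± 0.42 SE; edgeR adjusted p = 0.680). Gnl3, nucleostemin, had 78.1 to 115 CPM against 35.8 to 65.0 CPM, and Fbl, the rRNA methyltransferase fibrillarin, had 82.3 to 167 CPM against 59.3 to 76.3 CPM. The summed level of the list was 5214 to 6771 plain CPM in Mycl-high and 4833 to 5203 plain CPM in Mycl-low tumors. Summed levels of lists here and below are in plain CPM, without TMM scaling. Leaving out any 1 tumor kept the median between 0.33 and 0.47.

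Nucleotide synthesis gave 24 of 30 genes above 0, a median of 0.39 and 6 non-overlapping genes, all higher (background 3.52%). Paics, of purine synthesis, had 413, 270, 336 and 480 CPM in Mycl-high tumors 1, 4, 6 and 7 and 198, 161 and 243 CPM in Mycl-low tumors (0.90 ± 0.32 SE; edgeR adjusted p = 0.792). Prps1, which makes the ribose phosphate donor, Dtymk, which phosphorylates thymidylate, and Nme2, a nucleoside diphosphate kinase gene, differed by 0.80, 0.69 and 0.91 in log2, without overlap. Rrm1, of ribonucleotide reductase, overlapped, with a log2 difference of 0.11 ± 0.27 SE. The sums were 3195 to 3809 CPM against 2643 to 3102 CPM. Serine and one-carbon enzymes gave 20 of 24 above 0, a median of 0.49 and 4 non-overlapping genes, all higher (background 3.52%). Shmt2, the mitochondrial serine hydroxymethyltransferase gene, had 75.6 to 111 CPM against 43.2 to 67.2 CPM, and Cbs, which starts transsulfuration, had 5.82 to 12.4 CPM against 1.14 to 3.71 CPM. DNA replication had 27 of 35 above 0 and a median of 0.32, and mitosis 22 of 36 and 0.07, each with 1 gene higher without overlap, a share below the background of 3.52%. The replication genes Mcm2 and Pcna differed by 0.25 ± 0.27 and 0.32 ± 0.33 SE in log2, and the proliferation markers Mki67 and Top2a by -0.06 ± 0.66 and -0.16 ± 0.41. Mki67 was highest in Mycl-high tumor 1 (1850 CPM) and lowest in Mycl-low tumor 3 (214 CPM), with Mycl-low tumors 2 and 5 (1516 and 1246 CPM) above the other Mycl-high tumors.

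Cytosolic ribosomal protein genes were all above 0, 79 of 79, with a median of 1.21, 25 higher at an unadjusted p under 0.05 (background 3.62%) and 8 higher without overlap (background 3.52%). Their summed level was 168854 CPM in tumor 7 and 80278 CPM in tumor 4, but 55078 and 40831 CPM in tumors 1 and 6, against 48307, 40215 and 36971 CPM in Mycl-low tumors 2, 3 and 5. Tumor 6 was therefore within the Mycl-low range. Rpsa, the laminin receptor-like subunit gene, had 1678, 2654, 1058 and 5970 CPM in Mycl-high tumors 1, 4, 6 and 7 and 1095 to 1316 CPM in Mycl-low tumors. Rps6, the S6 kinase substrate on chromosome 4, had 3312, 1661, 1014 and 3870 CPM against 983, 791 and 924 CPM. The list's median was 0.47 without tumor 7 and 0.09 with a covariate for multiply aligned reads, whose share was highest in tumors 4 and 7 (20.8% and 22.2%). The correlation of level with transcript length was also lowest in these 2 tumors (-0.26 and -0.48), and its part in the levels of these genes was not tested. These genes have processed pseudogenes, and reads placed at more than 1 site were not counted, so their levels are uncertain.

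Respiratory chain and ATP synthase genes were also highest in tumors 7 and 4. All 64 were above 0 with a median of 0.66, 0 at an unadjusted p under 0.05 (background 3.62%) and 1 higher without overlap, below the background of 3.52%. The sum was 22248 CPM in tumor 7 and 13108 CPM in tumor 4, but 8654 and 8722 CPM in tumors 1 and 6, against 8100 to 10690 CPM in Mycl-low tumors. Atp5b, the catalytic subunit gene of ATP synthase, had 2049 CPM in tumor 7 and 777 to 964 CPM in the other 6. The median was 0.13 without tumor 7 and -0.27 with the covariate, a change of sign. Tumors 7 and 4 are those with the most negative correlation of level with transcript length (-0.48 and -0.26), whose part was not tested here either.

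**Figure D4:**
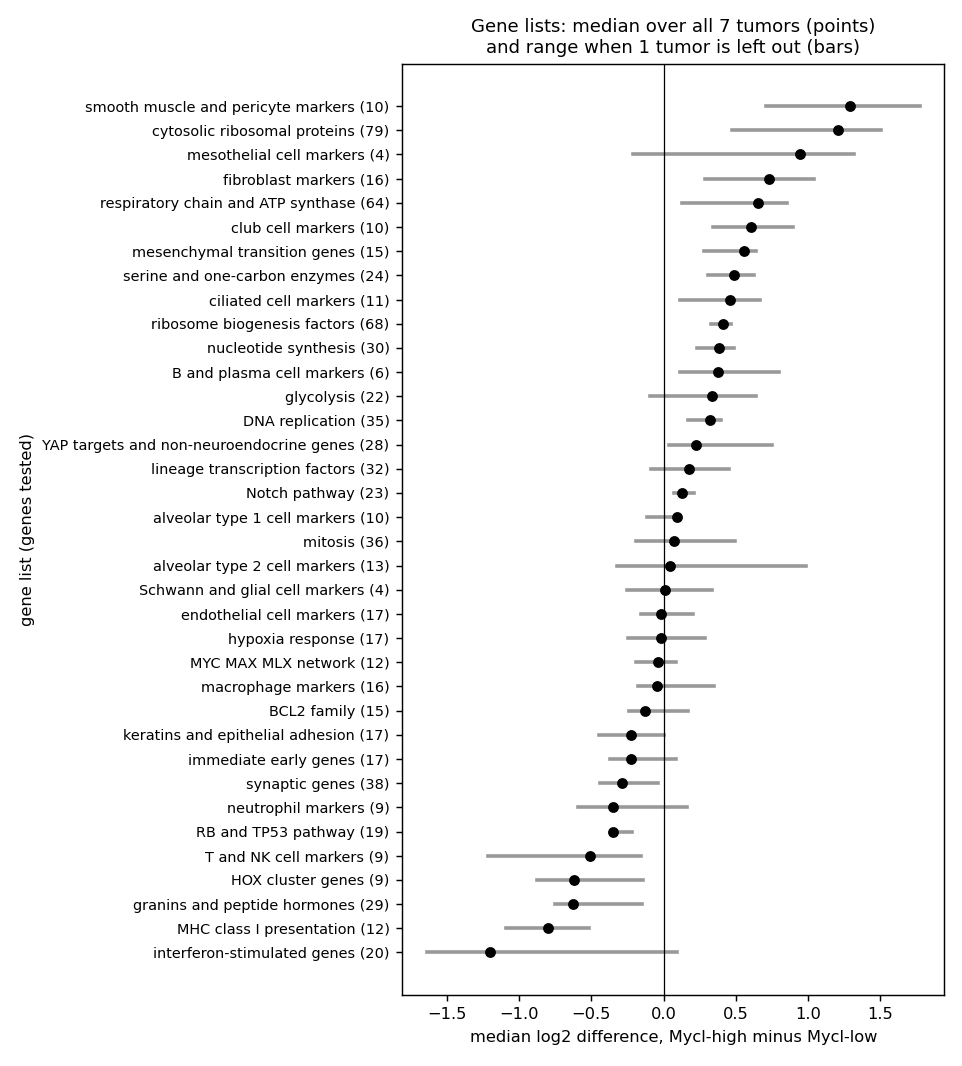
Median log2 difference (Mycl-high minus Mycl-low) of each gene list with 4 or more tested genes (points, x axis), with the number of tested genes beside its name and a bar for the range when each of the 7 tumors is left out in turn. Ribosome biogenesis (0.33 to 0.47) has a short bar, while the median of cytosolic ribosomal proteins is 1.21 in all 7 tumors and 0.47 without tumor 7, and that of interferon-stimulated genes is 0.09 without tumor 3.

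Genes of the neuroendocrine program leaned the other way. Of 29 tested granins, peptide hormones and granule proteins, 21 were below 0, with a median of -0.62 and 3 lower without overlap (Chgb, Ptprn2, Syp; background 3.39%). The median stayed below 0 without any 1 tumor but was -0.15 without Mycl-low tumor 3. Syp, the vesicle protein synaptophysin, had 99.8, 119, 97.8 and 69.2 CPM in Mycl-high tumors 1, 4, 6 and 7 and 218, 189 and 158 CPM in Mycl-low tumors 2, 3 and 5 (-0.97 ± 0.28 SE; edgeR adjusted p = 0.756). Nov, a secreted matrix protein gene, overlapped (-0.42 ± 0.55 SE). Calca, the gene for calcitonin and CGRP, had 21921 plain CPM in tumor 2 and took most of the list's summed level there, which ran from 10234 to 27982 CPM in Mycl-low and from 4485 to 13370 CPM in Mycl-high tumors.

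Of 38 synaptic genes, 23 were below 0, with a median of -0.29, and members differed in direction. Cplx2, a complexin gene, overlapped with a difference of -0.38 ± 0.46 SE, as did Elavl3 with 0.12 ± 0.60. Syn2 and Vamp2 of synaptic vesicles were lower by 0.85 and 0.84 in mean log2. Stmn2 and Gap43, both known from growing axons, were higher: Gap43 had 10.4 to 29.6 CPM against 0.450 to 5.16 CPM. Stmn2 had 2.66, 62.3, 10.3 and 7.02 CPM in Mycl-high tumors 1, 4, 6 and 7 against 0.225 to 0.968 CPM, with tumor 4 far above the others. None of these 4 genes overlapped between the sets. The list held 2 such genes on the higher side (background 3.52%) and 3 on the lower (3.39%).

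Lineage factors held no common direction, with 19 of 32 above 0 and a median of 0.18. Sox1, a neural SOX factor gene, had 257, 221, 289 and 118 CPM in Mycl-high tumors 1, 4, 6 and 7 and 41.4, 18.0 and 104 CPM in Mycl-low tumors 2, 3 and 5 (2.03 ± 0.57 SE; edgeR adjusted p = 0.744). Nkx2-1, a lung lineage factor gene, had 299, 212, 241 and 208 CPM against 460, 383 and 322 CPM (-0.69 ± 0.29 SE; edgeR adjusted p = 0.792). Neither of these overlapped. Neurod1, a neuroendocrine factor gene, was left out by the filter on low counts, with 21.6 plain CPM in tumor 4, 7.51 in tumor 6 and 0.604 or less in the other 5 tumors.

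Antigen presentation genes were lower on average in Mycl-high tumors. All 12 tested genes of MHC class I presentation were below 0, with a median of -0.80 and 4 without overlap (background 3.39%). H2-K1, a class I heavy chain gene, had 159, 905, 1046 and 1296 CPM in Mycl-high tumors 1, 4, 6 and 7 and 1908, 1434 and 1808 CPM in Mycl-low tumors (-1.01 ± 0.59 SE; edgeR adjusted p = 0.841). B2m, the shared light chain gene, had 129, 1433, 1377 and 1740 CPM against 1229, 2648 and 2031 CPM. Tumor 1 was far below the rest in both, and the list's median was -0.51 without it. Tap2, of the peptide transporter, had 26.9 to 43.5 CPM against 66.2 to 79.3 CPM (-1.09 ± 0.28 SE; edgeR adjusted p = 0.716), and Erap1, a peptide-trimming enzyme gene, had 17.5 to 30.4 CPM against 37.3 to 61.1 CPM. H2-Q4 had 49.1 to 210 CPM against 226 to 302 CPM. Macrophage markers, whose cells present antigen, had sums of 434 to 772 CPM in Mycl-high and 459 to 1011 CPM in Mycl-low tumors, and T and NK cell markers 13.3 to 32.6 against 31.3 to 49.7 CPM. Cd3e was at 1.01 plain CPM or less and Ncr1 at 0.201 plain CPM or less in all 7 tumors, and the part of such cells in the lower levels was not tested.

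Interferon-stimulated genes were below 0 in 20 of 20, with a median of -1.20. Of them 0 separated the sets (background 3.39% lower), and 2 were lower at an unadjusted p under 0.05 in edgeR (background 2.65%). Tumor 3 was far above the others, with a summed level of 2587 CPM against 196 to 900 CPM in the other 6, and without it the median of the list was 0.09.

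Smooth muscle and fibroblast genes leaned upward, and endothelial genes did not. The 17 endothelial markers had 8 above 0, a median of -0.02 and 0 without overlap (background 3.52% higher and 3.39% lower). Their sums were 314 to 731 CPM in Mycl-high and 594 to 1122 CPM in Mycl-low tumors. The smooth muscle and pericyte list had 10 of 10 above 0, a median of 1.29 and 3 genes higher without overlap (background 3.52%), with a summed level of 497 CPM in tumor 1, 159 to 217 CPM in the other Mycl-high tumors and 102 to 217 CPM in Mycl-low tumors, and its median was 0.71 without tumor 1. Acta2, smooth muscle actin, had 158 CPM in tumor 1, 28.0 to 51.4 CPM in the other Mycl-high tumors and 16.5 to 32.5 CPM in Mycl-low tumors. Col1a2, a collagen chain gene, had 246 CPM in tumor 1 and 56.2 to 118 CPM in the other 6. The fibroblast list had 14 of 16 above 0 and a median of 0.73, with 1097 CPM in tumor 1 and 257 to 702 CPM in the other 6, and 0.29 without tumor 1. The part of stromal RNA in the high genes of tumor 1 was not tested. Of 28 YAP targets and non-neuroendocrine genes 19 were above 0, with a median of 0.22 and 4 higher without overlap (background 3.52%). Among these 4, S100a6, a calcium-binding protein gene, had 43.9 to 114 CPM against 19.3 to 40.6 CPM, and Lgals1, galectin-1, had 38.9 to 109 CPM against 23.8 to 34.5 CPM. The list members with the highest level overlapped between the sets. Anxa1 had 126 to 882 CPM in Mycl-high and 51.0 to 1041 CPM in Mycl-low tumors, and Anxa2 63.8 to 248 CPM against 70.9 to 174 CPM. Notch pathway genes had 14 of 23 above 0 and a median of 0.13.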

How the data were processed

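RNA from 16 lung tumors was sequenced and 1 deposited file per tumor holds raw counts, whole numbers of reads for each of 23284 gene symbols. Per the submitters' processing notes, HTSeq 0.6.1, TopHat2 2.0.12 (TopHat is listed too), bcl2fastq 1.8.4 and build mm9 were used. No source names the annotation or the strand setting, so a gene and an antisense or overlapping partner cannot be told apart. Rows for reads in no gene, in several genes or at several sites stayed out of library sizes.

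Groups came from the labels and the Mycl sets from plain CPM of Mycl1. The members, gene lists and tests were chosen with earlier results of these data known. Counts were tested with edgeR 4.0.16 in R 4.3.3 (glmQLFit, TMM factors, filterByExpr, Benjamini-Hochberg over all genes), leaving Mycl1 out. A log2 standard error is the log2 difference divided by the square root of F. Genes were named by rule: the tested MYC network members, the 12 smallest p and the 5 largest differences per direction (mean of 1 CPM or more, unnamed gene models left out), the tested genes within 10 of Mycl1, the 10 most like Mycl1, and for each list up to 2 members by level. Other genes, among them most list members given as examples, were chosen after their values were seen. limma 3.58.1 and DESeq2 1.42.0, other scalings and filters, leaving out tumors and a covariate were the alternatives. Gene order and promoters came from RefSeq tables for GRCm38.p6, by symbol or synonym (22994 of 23284 symbols); no mm9 coordinates were used. The fit was tested on simulated data with 4 against 3 tumors. It recovered 0 of 50 changes of 2-fold, 19 of 50 of 4-fold, 35 of 50 of 8-fold and 47 of 50 of 16-fold, with 7 false calls. A count of 0 called genes therefore does not show that differences are absent, and this holds for large ones too. In the 7 tumors, edgeR did not call log2 differences of 5.26 for Bex4, 4.85 for Rps6ka6 and 4.08 for Igfbp2. Depth was 9.15 to 13.2 M reads in genes per wild-type tumor. Some items are not reported here.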

Additional observations from a re-analysis of the deposited data

Results flagged for a closer look

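In 122 groups of 4 to 9 tumors looked at for a value far from the rest, 6 were found; chance gives about 1 in 20. In 4 of them the value was that of Mycl-high tumor 7. It had 25.9 CPM of Mxd1, against 39.8 to 39.9 CPM in the other Mycl-high tumors. It had 17.9 CPM of Ndufs5, a complex I subunit gene near Mycl1, against 1.46 to 1.97 CPM, and 167 CPM of Utp11l, a ribosome biogenesis gene in the same stretch, against 43.2 to 47.7 CPM. It had 2049 CPM of Atp5b, the ATP synthase subunit gene, against 837 to 964 CPM. Bid, a death-promoting BCL2 family gene, had 42.4 CPM in Mycl-high tumor 1, against 14.1 to 15.3 CPM in the other Mycl-high tumors. Tumor 1 also had 129 CPM of B2m, the MHC class I light chain gene, against 1377 to 1740 CPM.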

How the results depend on the processing

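Under 18 alternatives, 7 of which left out 1 tumor, the number of genes called between the sets was 0, except for 107 in DESeq2, 1 (Bex4) with all 16 tumors in 1 fit and 0 to 1 when 1 tumor was left out, where Bex4 was called without replicate 5. The slope difference gave 0 calls except 1 (Bex1, chosen for separating the sets) without wild-type tumor 1. The labels do not say whether equal numbers pair tumors. The correlation of same-numbered wild-type and null tumors ran from -0.17 to 0.24, and 2 of 7 were over 0.1. Of the wild-type tumors, 0 of 7 correlated best with their own number. Such correlations cannot show whether the tumors were paired. The slope difference with the number as a replicate block called 0 genes, with 1237 at an unadjusted p under 0.05. Between the Mycl sets no paired analysis was possible because the 7 tumors carry different numbers. Leaving out tumors 1 and 7 together was chosen after seeing the data. Of 120 named genes, 94 kept their sign under every alternative in which they were tested, and 26 did not; the cause was not tested. With DESeq2 size factors the reversed values were 0.0046 for Max. With upper-quartile factors the reversed values were 0.0352 for Max. In DESeq2 the reversed values were 0.0043 for Max. In limma-voom the reversed values were -1.16 for Hpcal4, 0.0239 for Max, 0.0505 for Mlx, -0.20 for Mnt. With the 5 CPM filter the reversed values were 0.0167 for Max. As a slope on Mycl1 the reversed values were -0.0080 for Hpcal4, 0.0247 for Mga, 0.0086 for Mki67, 0.0202 for Mlxip, 0.0357 for Mlxipl, 0.0365 for Mxd4, 0.0726 for Nov. With the multiply aligned covariate the reversed values were -2.41 for Hpcal4, 0.31 for Mga, 0.18 for Mki67, 0.0426 for Mlxip, 0.30 for Mlxipl, -0.0486 for Mxd3, 0.17 for Mxd4, 0.0075 for Top2a, 0.0671 for Zmpste24. Without tumors 2, 4 and 7 the reversed values were 0.67 for Barx2, 0.17 for Cplx2, -1.76 for Hpcal4, 3.18 for Lcn13, 0.0716 for Mga, 0.80 for Mki67, 0.48 for Mlxipl, -0.47 for Myc, 0.24 for Ncl, 0.24 for Top2a, 0.0398 for Zmpste24. Without tumors 1 and 7 the reversed values were -0.0026 for Atp5b, -0.0451 for Cap1, -2.54 for Hpcal4, -0.14 for Macf1, 0.11 for Max, 0.25 for Mlx, -0.53 for Mnt, -0.32 for Ppt1, -0.00027 for Rrm1. Over the fits that left out 1 tumor each, the ranges of the genes that changed sign were -3.80 to 0.51 for Barx2, -6.24 to 0.41 for Ddx3y, -0.35 to 0.69 for Elavl3, -2.57 to 1.11 for Hpcal4, -5.54 to 2.32 for Lcn13, -0.0965 to 0.0806 for Max, -0.36 to 0.0113 for Mga, -0.60 to 0.35 for Mki67, -0.37 to 0.13 for Mlx, -0.62 to 0.11 for Mlxipl, -0.41 to 0.36 for Mnt, -0.0309 to 0.70 for Mxd3, -0.31 to 0.11 for Mxd4, -0.0289 to 0.94 for Myc, -0.15 to 0.90 for Mycn, -0.87 to 0.0658 for Nov, -0.0031 to 0.19 for Rrm1, -0.50 to 0.0649 for Top2a. Depth limits the genes below 1 CPM, where single reads decide a value.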

Other observations

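Bid, a death-promoting BCL2 family gene, was higher and Mcl1, a survival gene of the family, was lower in every Mycl-high tumor than in any Mycl-low tumor, with log2 differences of 1.64 and -0.62. Jun, an immediate early gene, and Cdh1, the epithelial cadherin gene, were lower without overlap, by 0.98 and 1.06 in mean log2. Cdk4, the kinase gene upstream of RB1, was higher by 0.77 and the mitotic kinase gene Plk1 by 0.86, both without overlap. None was called by edgeR, and these genes were chosen after their values were seen.

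Single tumors departed from the Max null tumors over whole chromosomes. Mycl-low tumor 3 had a median of -0.48 in log2 over the tested genes of chromosome 14, where the other 6 tumors had -0.02 to 0.14. On chromosome 19 the median was -0.48 in tumor 2, -0.28 in tumor 4, -0.29 in tumor 5 and -0.45 in tumor 6, and 0.11 to 0.26 in tumors 1, 3 and 7. Neither pattern follows the Mycl sets.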
